A study of Homo sapiens with 6 samples.

Results

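A set of 126 well-expressed lincRNA genes was described, out of 7629 lincRNA rows and 58735 rows in all. Members were selected on 3 criteria: the biotype lincRNA in the count table, a mean raw count of at least 100 over the 6 libraries, and absence from a short list of lincRNA genes described elsewhere. Of 129 lincRNA rows at or above that mean, LINC01029, MALAT1 and NEAT1 were left out by name, and 4762 lincRNA rows had no count in any library. The mean count therefore served to choose the members, while the difference between the cell lines did not. A member that reached 100 through 1 line alone is nonetheless more likely to differ: the mean was under 100 in C4-2B for 9 members, under 100 in RC4-2B for 9 members, and at least 100 in both for 108. Just inside the limit lay AC106782.2 (mean 100.5 counts), AP006621.3 (100.5) and NUP50-DT (100), and just outside it AC102953.2 (99.7), MIRLET7BHG (96.7) and LINC01089 (95).

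The study compared C4-2B, a castration-resistant prostate cancer cell line, with RC4-2B, a subclone of C4-2B made resistant to the taxane cabazitaxel (CBZ). RC4-2B was derived over 4 months by repeated 72 h CBZ treatments at concentrations raised from 0.1 nM to 20 nM, so it stands for 1 selected derivative of 1 line. Total RNA of 3 biological replicates per line was sequenced, the labels giving both lines the same RPMI-1640 medium with FBS and antibiotics and naming no drug in it, while the study's methods name charcoal-stripped serum as well as FBS. All 6 libraries expressed the luminal prostate markers examined (9 of 9 above 10 CPM, which are counts scaled to library size), and 8 of 9 markers of other cell types were at or under 1 CPM, the exception being COL1A1. The summed CPM of the luminal markers was 3853–4079 in C4-2B and 2874–3169 in RC4-2B, and the part of this difference in the results was not tested. In bulk RNA, a change in every cell and a change in the share of cells that express a gene cannot be told apart.

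Long intergenic noncoding RNAs are transcribed by RNA polymerase II, capped, often spliced and polyadenylated, and encode no known protein. Many act in the nucleus on chromatin or on neighbouring genes, some act in the cytoplasm by binding proteins or microRNAs, and others serve mainly as precursors from whose introns or exons small nucleolar RNAs (snoRNAs) or microRNAs are cut. In prostate cancer cells several lincRNAs are known to be controlled by the androgen receptor.

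Sequences at the annotated starts of 7 members are shown first: the 5 that rose in RC4-2B by the test below, and SNHG8 and SNHG19, the members with the most counts per length among the snoRNA hosts that lay lower in every RC4-2B library. Each line holds 250 bases before and 50 bases from the deposited 5′ end, read 5′ to 3′ on the gene's strand from GRCh38. Capitals mark 5 motifs on either strand. They are the TATA box with the letters TATAAA, the box named by its letters CCAAT, the GC box with the letters GGGCGG, the E-box with the letters CACGTG, and the half-site of the androgen receptor with the letters AGAACA. Motifs that overlapped were counted separately.
AC134978.1, chr18:77986561-77986860, minus strand: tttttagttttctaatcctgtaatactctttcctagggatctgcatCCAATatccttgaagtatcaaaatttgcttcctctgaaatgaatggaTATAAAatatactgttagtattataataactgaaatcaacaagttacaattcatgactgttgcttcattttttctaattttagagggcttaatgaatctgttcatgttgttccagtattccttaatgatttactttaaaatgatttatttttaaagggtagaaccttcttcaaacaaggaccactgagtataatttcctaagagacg
AL035661.1, chr20:24931590-24931889, plus strand: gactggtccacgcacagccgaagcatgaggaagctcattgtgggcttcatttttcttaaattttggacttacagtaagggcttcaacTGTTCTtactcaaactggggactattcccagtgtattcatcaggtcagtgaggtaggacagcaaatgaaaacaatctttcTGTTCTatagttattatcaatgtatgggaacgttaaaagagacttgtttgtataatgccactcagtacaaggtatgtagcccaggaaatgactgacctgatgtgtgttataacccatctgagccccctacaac
AC237221.1, chr7:57404521-57404820, plus strand: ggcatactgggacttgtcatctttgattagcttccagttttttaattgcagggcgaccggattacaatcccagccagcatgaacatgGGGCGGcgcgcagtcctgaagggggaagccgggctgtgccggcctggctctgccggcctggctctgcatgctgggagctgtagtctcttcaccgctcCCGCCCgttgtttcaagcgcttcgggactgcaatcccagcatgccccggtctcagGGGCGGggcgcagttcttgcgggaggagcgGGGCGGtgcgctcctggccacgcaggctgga
DUBR, chr3:107240442-107240741, plus strand: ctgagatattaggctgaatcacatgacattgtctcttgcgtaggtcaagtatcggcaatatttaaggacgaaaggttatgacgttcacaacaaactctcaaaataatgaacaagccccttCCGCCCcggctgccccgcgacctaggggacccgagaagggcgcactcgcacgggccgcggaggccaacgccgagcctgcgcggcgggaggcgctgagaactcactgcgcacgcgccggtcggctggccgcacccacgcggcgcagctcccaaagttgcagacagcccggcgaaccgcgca
AC015849.5, chr17:35910974-35911273, minus strand: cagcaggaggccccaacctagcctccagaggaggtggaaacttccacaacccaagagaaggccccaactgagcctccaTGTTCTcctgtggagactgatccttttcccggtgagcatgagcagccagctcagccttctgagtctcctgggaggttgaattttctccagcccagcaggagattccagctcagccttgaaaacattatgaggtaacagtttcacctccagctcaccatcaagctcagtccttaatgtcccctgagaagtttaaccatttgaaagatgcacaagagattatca
SNHG8, chr4:118278459-118278758, plus strand: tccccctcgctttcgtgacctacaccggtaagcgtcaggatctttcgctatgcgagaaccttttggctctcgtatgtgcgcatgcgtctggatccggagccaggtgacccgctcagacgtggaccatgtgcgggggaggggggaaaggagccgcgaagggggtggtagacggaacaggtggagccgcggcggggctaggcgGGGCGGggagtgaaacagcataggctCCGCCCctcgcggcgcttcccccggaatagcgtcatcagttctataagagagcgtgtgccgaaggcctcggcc
SNHG19, chr16:2155309-2155608, minus strand: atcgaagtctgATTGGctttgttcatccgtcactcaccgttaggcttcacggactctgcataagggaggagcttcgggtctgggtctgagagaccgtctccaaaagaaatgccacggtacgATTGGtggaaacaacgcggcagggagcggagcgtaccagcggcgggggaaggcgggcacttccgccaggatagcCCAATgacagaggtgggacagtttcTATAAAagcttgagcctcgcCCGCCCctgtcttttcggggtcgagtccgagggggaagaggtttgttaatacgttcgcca

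The 7 windows were unlike in composition. AC134978.1 had 29.7% G and C with 1 TATA box and 1 CCAAT box, AL035661.1 had 42% with 2 androgen receptor half-sites, and AC015849.5 had 51.0% with 1 half-site. AC237221.1 had 63.7% G and C with 4 GC boxes, DUBR 61.7% with 1, SNHG8 64.3% with 2, and SNHG19 57.0% with 1 GC box, 3 CCAAT boxes and 1 TATA box. None of the windows held bases of a protein-coding exon in GENCODE release 44. For a wider view, 75 of the 126 members had a promoter in a RefSeq table (GRCh38.p14, same 300 bases), 68 of them with a start within 1000 bases of the deposited one. A GC box was found in 53 of these 75 (70.7%) against 45.0% of all 35116 promoters in the table, and a CCAAT box in 36 (48%) against 34.6%. The E-box was found in 8 (10.7%, against 7.26%), the TATA box in 6 (8%, against 11.5%) and the androgen receptor half-site in 4 (5.33%, against 14.8%). These shares describe letters, and neither binding nor its absence was measured.

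The members made up 0.258–0.271% of the counts in the C4-2B libraries and 0.262–0.281% in the RC4-2B libraries, so their total overlapped between the lines. They held 64.8% of all lincRNA counts, and NORAD alone held 12.4% of the members' counts. Per length, the median member had 4.17 FPKM (fragments per kilobase of transcript, scaled to library size; range 0.204–117), and protein-coding genes that passed the same count minimum had a median of 7.80 FPKM (10039 genes). By level, 6 members lay under 1 FPKM, 65 between 1 and 5, and 55 above 5. Of the 123 members whose identifier is in GENCODE release 44, 44 had a single-exon longest transcript, the median was 2 exons, and the median GC content was 48% (33.3–70.9%), against 47.5% for the protein-coding genes. There 58 members share exonic bases with another gene, 19 on the same strand and 49 on the opposite strand, and since the strand setting of the counting is not given in the sources used here, reads of such overlaps cannot be assigned to 1 gene.

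Among the 10 highest members by mean FPKM, SNHG19, host of the snoRNA SNORD60, was the highest with 153 ± 27.7 FPKM in C4-2B and 80.6 ± 37.0 in RC4-2B (SD, n = 3). FLJ20021, which starts head to head with the calcineurin gene PPP3CA, followed with 72.6 ± 7.61 and 58.8 ± 8.14 FPKM, and NORAD, a cytoplasmic RNA that binds Pumilio proteins and protects genome stability, with 48.2 ± 3.12 and 65.3 ± 14.3 FPKM. SNHG8, host of SNORA24, had 45.4 ± 3.27 and 29.7 ± 7.52 FPKM. AL035661.1, MNX1-AS1, AL355338.1 and LINC00665 were also among the 10 highest, with 39.3 ± 2.08, 29.9 ± 4.33, 19.9 ± 3.73 and 24.1 ± 4.32 FPKM in RC4-2B. The Y-linked member also ranked among the 10 and is given no values here. The levels of SNHG19 and FLJ20021 in RC4-2B differed by less than the SD of SNHG19.

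Between the lines, the members as a group did not shift. On the log2 scale (RC4-2B over C4-2B) 64 members had a positive and 62 a negative fold change, the median was 0.0047, and the medians of the single libraries, relative to the C4-2B mean, lay between −0.08 and 0.05. The median absolute change was 0.21, against 0.23 for protein-coding genes with the same count minimum, with median standard errors (SE) of 0.19 and 0.15. Changes ranged from −1.11 to 1.87, 100 of the 126 were under 0.5 in size, 5 were over 1, and for 32 members the 95% interval lay within 0.5 of no change. In the quasi-likelihood test of edgeR, with p-values adjusted after Benjamini and Hochberg over all 15054 genes tested, 5 members rose in RC4-2B and 0 fell at an adjusted p under 0.05. Over all genes tested 1.08% rose and 0.903% fell. At an unadjusted p under 0.05, 18 members lay higher and 13 lower, where 12.0% and 9.42% of all genes tested did, and DESeq2 called 7 higher and 4 lower (3.28% and 2.64% of all genes tested by it). Of the 108 members with a mean of at least 100 counts in both lines, 3 were called higher and 0 lower.

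**Figure D1:**
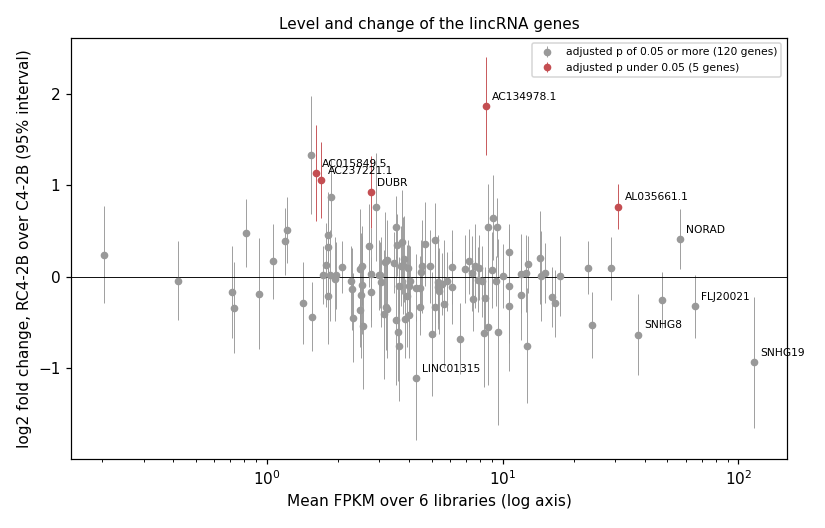
Mean FPKM over the 6 libraries (log axis) against the log2 fold change of RC4-2B over C4-2B for 125 members, the Y-linked member being left out. Points are single genes, bars are 95% intervals from edgeR, and the 5 red points are the members with an adjusted p under 0.05, which range from 0.77 to 1.87, while SNHG19, the member with the highest FPKM, sits at −0.94.

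The RC4-2B libraries were not equally alike, which bears on every count of calls. RC4-2B replicate 2 differed from the other two RC4-2B libraries by a SD of 0.51–0.58 in log2 CPM over genes, whereas the other pairs of replicates differed by 0.12–0.20. This library had the lowest value of all 6 for 45 members, with a median GC content of 53.2%, and the highest for 38, with a median GC content of 42%. Over 123 members its deviation from the other two RC4-2B libraries had a Spearman rho of −0.54 with GC content, as a description, and −0.73 over 10846 genes. The median coefficient of variation of the members was 9.43% in C4-2B, 16.7% in RC4-2B, and 9.93% between RC4-2B replicates 1 and 3. Without RC4-2B replicate 2, 11 members were called higher and 9 lower by edgeR (6.5% and 6.02% of all genes tested), and with a GC correction of all libraries 9 and 5 (4.34% and 3.26%). All 5 members called with the 6 libraries were also called in both of these fits and by DESeq2.

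**Figure D2:**
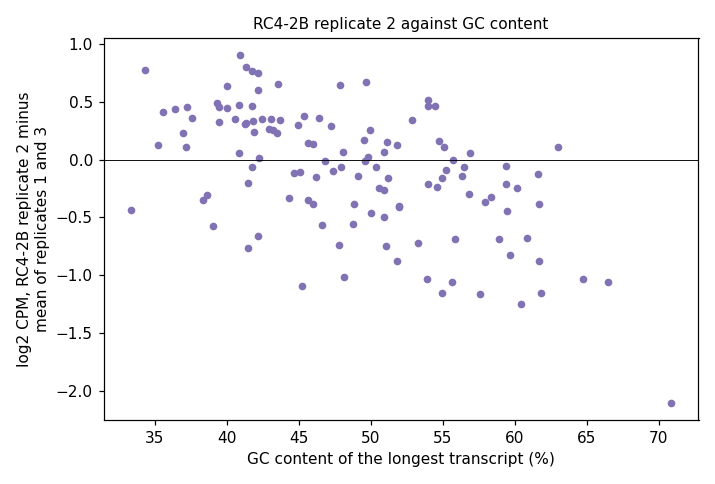
GC content of the longest transcript (%) against the log2 CPM of RC4-2B replicate 2 minus the mean of replicates 1 and 3, for the 123 members with a GC value. Each point is 1 gene, and the cloud falls from left to right (Spearman rho −0.54).

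AC134978.1, an unnamed lncRNA of 2 exons on chromosome 18, showed the largest change. It had 2.39, 3.40 and 3.70 CPM in C4-2B compared with 10.6, 14.2 and 9.93 CPM in RC4-2B, a 3.66-fold rise (log2 1.87, SE 0.23, edgeR adjusted p = 0.0089). The groups were far apart, the lowest RC4-2B library lying well above the highest C4-2B library. Its mean count passed 100 through RC4-2B alone. The nearest protein-coding genes tested went the other way, with log2 values of −0.44 for MBP (adjusted p = 0.13) and −0.27 for ATP9B (adjusted p = 0.30), as did the median of the 230 genes tested on chromosome 18 (−0.18). AC134978.1 shares no exonic base with another gene in GENCODE release 44.

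AL035661.1, listed as LINC02967 in GENCODE release 44, is a single-exon gene on chromosome 20 and the call with the tightest replicates. It had 29.1, 29.3 and 28.5 CPM in C4-2B compared with 47.2, 49.6 and 51.1 CPM in RC4-2B (log2 0.77, SE 0.11, edgeR adjusted p = 0.015). Its 95% interval ran from 0.52 to 1.02, and RC4-2B replicate 2 lay between the other two. The nearest tested coding genes, APMAP and CST3, had log2 values of −0.12 and 0.06 with adjusted p-values of 0.49 and 0.86 by edgeR. The median of chromosome 20 was −0.05 over 398 genes.

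AC237221.1, listed as MIR3147HG in GENCODE release 44, is a host gene on chromosome 7 whose span holds the microRNA miR-3147. It had 4.06, 4.08 and 3.42 CPM in C4-2B compared with 8.69, 7.18 and 8.22 CPM in RC4-2B (log2 1.06, SE 0.18, edgeR adjusted p = 0.028), and its mean also passed 100 through RC4-2B alone. The microRNA itself was not measured. Its neighbour ZNF716, a zinc finger gene, was barely detected, with means of 0.133 ± 0.143 CPM in the parental cells and 0.754 ± 0.115 CPM in the resistant cells (adjusted p = 0.11), and the neighbour on the other side, CHCHD2, had a log2 value of −0.34 (adjusted p = 0.31).

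DUBR, on chromosome 3, is known from muscle differentiation, where it was described as an RNA binding upstream of DPPA2. It had 7.88, 9.29 and 9.39 CPM in C4-2B compared with 14.3, 19.7 and 16.5 CPM in RC4-2B (log2 0.93, SE 0.17, edgeR adjusted p = 0.036). The downstream gene BBX had a log2 value of 0.67 (adjusted p = 0.11), and CBLB on the other side 0.34 (adjusted p = 0.46). AC015849.5, on chromosome 17, had 6.38, 7.36 and 5.46 CPM in C4-2B compared with 11.2, 18.5 and 12.5 CPM in RC4-2B (log2 1.14, SE 0.23, edgeR adjusted p = 0.049). GENCODE release 44 lists it as a transcribed processed pseudogene, so reads may be shared with its parent gene, and RC4-2B replicate 2 carried its highest value. The neighbours TAF15 and RDM1 had log2 values of −0.11 and 0.17 (adjusted p = 0.75 and 0.64).

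Whether a member passed the threshold depended on single libraries. Without C4-2B replicate 1 or without C4-2B replicate 2 no member passed the threshold in edgeR (12 higher and 5 lower, and 15 higher and 6 lower, at an unadjusted p under 0.05), and without C4-2B replicate 3 or RC4-2B replicate 3 only AC134978.1 did (adjusted p = 0.045 and 0.031). Without RC4-2B replicate 1, 6 members were called higher and 3 lower. Shares over all genes tested were not computed for these omissions, so the counts cannot be set beside those of all genes. Across the fits with 1 library left out the edgeR adjusted p ranged from 7.61e-05 to 0.061 for AC134978.1 and from 0.00012 to 0.11 for AL035661.1. The log2 fold changes moved less, from 1.70 to 1.99 for AC134978.1 and from 0.74 to 0.80 for AL035661.1. They ranged from 0.98 to 1.13 for AC237221.1 and from 0.89 to 1.28 for AC015849.5.

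Next in order among the higher members were LINC00648, AF127577.4 and LINC01291. Of these, LINC00648 and AF127577.4 passed the count minimum through RC4-2B alone, which makes a difference more likely. LINC00648 had 3.88, 4.87 and 4.61 CPM in C4-2B compared with 7.63, 9.06 and 7.75 CPM in RC4-2B (log2 0.87, edgeR adjusted p = 0.055). AF127577.4 had 5.01, 4.76 and 7.29 CPM in C4-2B compared with 9.94, 19.7 and 13.3 CPM in RC4-2B (log2 1.33, SE 0.28, edgeR adjusted p = 0.057). AF127577.4 shares 27.7% of its exonic bases with other genes on its own strand, NRIP1 among them, a nuclear receptor coregulator that rose itself (log2 1.16, SE 0.18, adjusted p = 0.020), so its reads and those of NRIP1 cannot be told apart in the shared part. LINC01291 went from 12.6–14 CPM to 17.5–22.0 CPM (log2 0.55, adjusted p = 0.10). AC074135.1, which shares 18.4% of its exonic bases with the zinc finger gene ZNF730, had a log2 value of 0.64 (adjusted p = 0.14), and AC005332.6, on chromosome 17, 0.55 (adjusted p = 0.18).

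At the lower end no member passed the test with all 6 libraries. LINC01315 had 8.35, 8.38 and 8.08 CPM in C4-2B compared with 5.19, 2.11 and 4.23 CPM in RC4-2B (log2 −1.11, SE 0.30, edgeR adjusted p = 0.097). AC068473.5, which starts head to head with CTDP1 on chromosome 18, had 22.0, 16.6 and 17.1 CPM in C4-2B compared with 11.3, 13 and 10.5 CPM in RC4-2B (log2 −0.68, SE 0.17, edgeR adjusted p = 0.081). In both, every RC4-2B library lay below every C4-2B library, and LINC01315 was lowest in RC4-2B replicate 2. LINC01315 passed the count minimum through C4-2B alone, which makes a difference more likely. LINC01315, AC068473.5 and SNHG19 were the 3 members called lower by DESeq2, with the GC correction and without RC4-2B replicate 2 alike. Without that library LINC01315 had a log2 value of −0.81 (edgeR adjusted p = 0.0086) and AC068473.5 −0.77 (adjusted p = 0.0039). Called lower without that library were also AL355338.1, the divergent transcript of PCCA (−0.66, edgeR adjusted p = 0.0027), LINC00909 (−0.65, adjusted p = 0.0089) and LINC00667 (−0.44, adjusted p = 0.010), whose values with all libraries were −0.53, −0.42 and −0.33.

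Complete separation of the groups was no more common than elsewhere. In 19 members (15.1%) every RC4-2B library lay above every C4-2B library and in 18 (14.3%) below, against 17.0% and 17.1% of all genes tested. For LINC02593, RAB30-AS1 and YTHDF3-AS1, 3 of the 10 lowest separated members, RC4-2B replicate 2 was the lowest library, and without it their log2 values went from −0.76 to −0.52, from −0.60 to −0.39 and from −0.55 to −0.27.

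**Figure D3:**
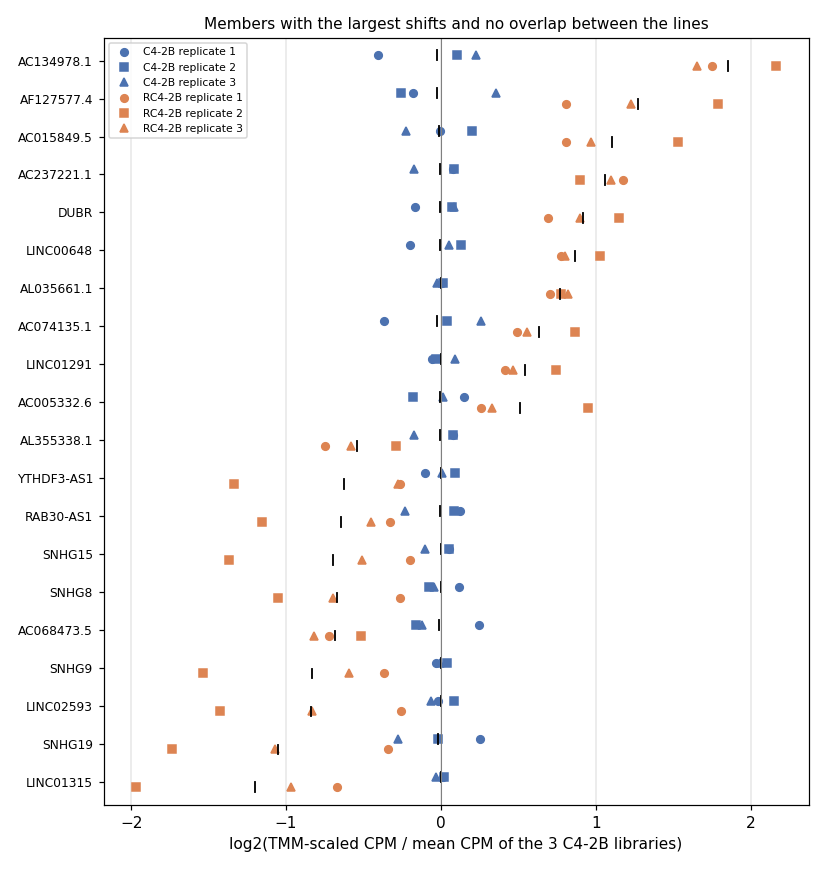
TMM-scaled CPM of each library relative to the mean of the 3 C4-2B libraries, on a log2 axis, for the 10 highest and 10 lowest members whose groups do not overlap. Symbols mark the replicate and black ticks the mean of the 3 log2 values of a line; RC4-2B replicate 2 (orange squares) lies farthest from C4-2B in most of these members, as in LINC01315, but between the other two in AL035661.1.

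Host genes of snoRNAs and microRNAs were the largest of 6 functional lists, with 12 members among 66 listed symbols. None of the 12 passed the test by edgeR. At an unadjusted p under 0.05 in edgeR, 4 lay lower and 0 higher, against 9.42% and 12.0% of all genes tested. DESeq2 called 2 lower, against 2.64% of all genes tested by it. Of the 12 hosts, 6 had a positive and 6 a negative log2 fold change, and the median was −0.17, against 0.0047 for all members. Off the list, though their spans hold microRNAs, were AC237221.1, which rose as given above, and MUC20-OT1 (log2 −0.34, SE 0.22, edgeR adjusted p = 0.36). Of the 7 snoRNA hosts 5 had a negative value, a description with no test. SNHG19 had 69.6, 57.5 and 48.1 CPM in C4-2B compared with 46.2, 17.5 and 27.7 CPM in RC4-2B (log2 −0.94, SE 0.31, edgeR adjusted p = 0.16). SNHG8 had 50.7, 44.4 and 45.3 CPM in C4-2B compared with 39.0, 22.6 and 28.9 CPM in RC4-2B (log2 −0.63, SE 0.19, edgeR adjusted p = 0.13). The hosts SNHG9 (SNORA78) and SNHG15 (SNORA9) were likewise lower in each RC4-2B library than in any C4-2B library, with log2 values of −0.75 and −0.62 (adjusted p = 0.18 and 0.22), whereas EPB41L4A-AS1 (SNORA13, −0.54) overlapped between the lines. With the GC correction SNHG9 moved to −0.27, while SNHG15, SNHG8 and SNHG19 had −0.67, −0.79 and −0.88. In SNHG4, which holds SNORA74A and SNORA74D, and in LINC02001, listed as SNHG30 in GENCODE release 44 and holding SNORD7, the log2 values were 0.13 and 0.01, turning to −0.0013 and −0.11 with the GC correction. RC4-2B replicate 2 had the lowest value of all 6 libraries in 7 of the 12 hosts. Without it SNHG8 and SNHG19 were called lower by edgeR (log2 −0.46 and −0.66, adjusted p = 0.021 and 0.023), and SNHG9 and SNHG15 had adjusted p-values of 0.064 and 0.054. The snoRNA genes lie inside these hosts, SNORA24 being counted on 131 bases within SNHG8, and reads from both could not be separated where their exons overlap.

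**Figure D4:**
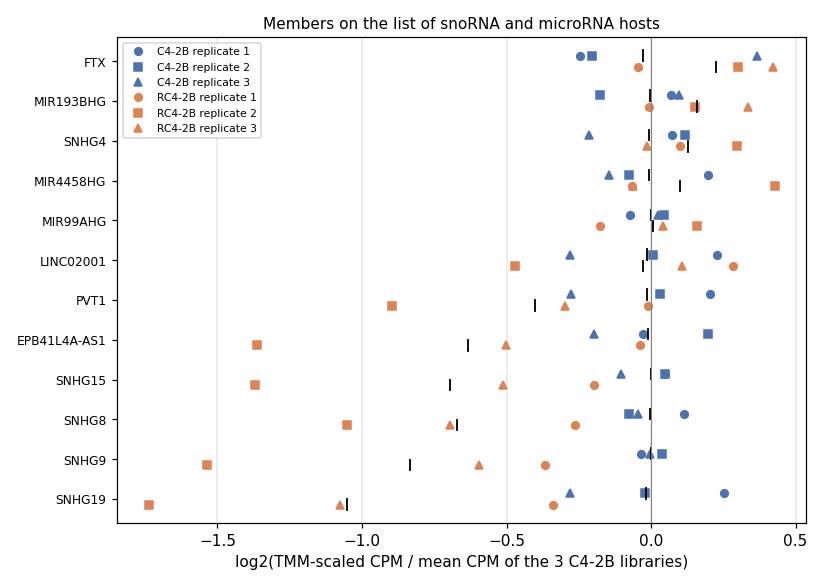
TMM-scaled CPM of each library relative to the C4-2B mean (log2 axis) for the 12 members on the fixed list of snoRNA and microRNA hosts, ordered by their fold change. Orange symbols are RC4-2B and blue C4-2B, ticks are means of 3 log2 values; in SNHG8, SNHG9, SNHG15 and SNHG19 no orange symbol reaches the blue ones, and in the microRNA hosts FTX, MIR193BHG, MIR4458HG and MIR99AHG the symbols mix.

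Not every member was searched for microRNAs. Among the members searched, the spans of 6 held 20 mature microRNAs on the same strand in the RefSeq table. Those of 3 hosts are shown because they belong to families with known targets or to the 1 host that rose. Capitals mark the seed, bases 2 to 8.
hsa-miR-3147 (AC237221.1): gGUUGGGCagugaggaggguguga
hsa-let-7c-5p (MIR99AHG): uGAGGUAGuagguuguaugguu
hsa-miR-4458 (MIR4458HG): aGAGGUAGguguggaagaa
hsa-miR-99a-5p (MIR99AHG): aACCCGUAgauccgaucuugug
hsa-miR-125b-5p (MIR99AHG): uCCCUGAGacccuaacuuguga

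The let-7c-5p and miR-4458 sequences share the seed GAGGUAG, while the other three have seeds of their own. MIR99AHG, the host of the miR-99a, let-7c and miR-125b-2 cluster, had 20.6, 22.3 and 22.0 CPM in C4-2B compared with 19.1, 24.2 and 22.3 CPM in RC4-2B, with a log2 fold change of 0.01 and a 95% interval from −0.30 to 0.33. MIR4458HG had 10.5–13.4 and 11.1–15.7 CPM (log2 0.12, interval −0.32 to 0.56). MIR193BHG, which holds miR-193b and miR-365a, had a log2 value of 0.17, and FTX, an RNA of the X-inactivation centre that holds miR-374a, miR-374b, miR-421 and miR-545, 0.24. The direction of MIR99AHG and MIR4458HG turned with the GC correction (−0.19 and −0.08). PVT1, which lies beside MYC and hosts several microRNAs, had 25.5, 22.6 and 18.3 CPM in C4-2B compared with 22.0, 11.9 and 18.0 CPM in RC4-2B (log2 −0.36, SE 0.23, edgeR adjusted p = 0.38). The span of PVT1 was not searched, so its microRNAs are not among the 20 counted above.

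The other 5 functional lists held 14 members, of which edgeR and DESeq2 called 0. At an unadjusted p under 0.05 in edgeR, 2 lay higher and 2 lower, against 12.0% and 9.42% of all genes tested. Among RNAs of p53 signalling and genome stability, NORAD had 266, 302 and 293 CPM in C4-2B compared with 337, 467 and 340 CPM in RC4-2B, without overlap (log2 0.41, SE 0.14, edgeR adjusted p = 0.17), and 0.24 without RC4-2B replicate 2. SNHG15 was also on this list, and LINC00467 and TP53TG1, a p53 target, had log2 values of 0.17 and 0.03. The prostate cancer list held PVT1, LINC00665 (0.10) and TP53TG1. CRNDE, an RNA raised in colorectal and other tumours, had 18.2, 17.2 and 19.4 CPM in C4-2B compared with 16.9, 11.4 and 14 CPM in RC4-2B (log2 −0.37, SE 0.17, edgeR adjusted p = 0.25). It was the 1 member of the neural and developmental list and, with FTX, of the chromatin list. Of 7 members on the list of growth and stress RNAs, LINC00667, LINC00839, LINC01003, LINC00847 and LINC00662 had log2 values from −0.33 to −0.05, and LINC01184 and LINC00665 0.34 and 0.10. With the GC correction TP53TG1 and LINC00665 turned to −0.12 and −0.00069, and LINC01003 to 0.085. The members nearest to no change were GS1-124K5.4, AP003392.4, LINC02001, AL031123.2 and AC006504.5, with log2 values of 0.0045, 0.0049, 0.0070, 0.013 and 0.014 and 95% intervals reaching no further than 0.51 from 0.

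Many members start close to a protein-coding gene on the opposite strand. Such a head-to-head partner, with starts at most 1000 bases apart, was found for 51 of 126 members (40.5%), against 25.4% of the 512 other lincRNA rows tested. The member had the lower FPKM in 32 of the 51 pairs, with a median ratio of partner to member of 1.73. The changes of the members in these pairs were little related to those of their partners: Pearson's r over the 51 pairs, which share the same 6 libraries, was 0.10, and 26 of 51 pairs had the same sign. None of the 51 partners passed the test by edgeR, where 1.08% of all genes tested rose and 0.903% fell. At an unadjusted p under 0.05 in edgeR, 8 partners lay higher and 7 lower, against 12.0% and 9.42% of all genes tested. DESeq2 called 0 higher and 1 lower (3.28% and 2.64% of all genes tested by it). With the GC correction 1 partner was called higher and 1 lower (4.34% and 3.26% of all genes tested), and r was −0.13. Without RC4-2B replicate 2 the calls were 4 higher and 3 lower (6.5% and 6.02% of all genes tested), MNX1 being lower in both fits. SNHG9 starts 99 bases from RPS2, a ribosomal protein gene, and had a log2 value of −0.75 where RPS2 had −0.27 (SE 0.10). After the GC correction SNHG9 had −0.27 and RPS2 −0.09. MNX1-AS1 had 0.09 and its partner, the homeobox gene MNX1, −1.01 (SE 0.33), and 0.56 and −0.47 with the GC correction. All 5 called members were among the 75 without such a partner.

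**Figure D5:**
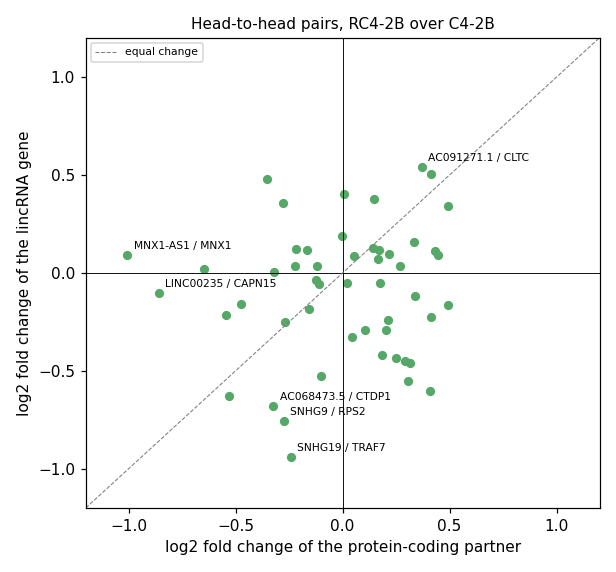
log2 fold change (RC4-2B over C4-2B) of the protein-coding partner against that of the lincRNA gene, for 51 head-to-head pairs. Each point is 1 pair and the dashed line marks equal change; the points spread over all quadrants (r = 0.10, same sign in 26 of 51), with SNHG19 lowest among the lincRNA genes and MNX1 lowest among the partners.

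By position, chromosome 7 held the most members, 16 of 126 (12.7%), while 5.17% of all lincRNA rows tested and 5.00% of all genes tested lay there. Their median log2 fold change was 0.02. On chromosome 17, 8 of 9 members had a positive value, 5 of them without overlap, with a median of 0.39, and the 944 genes tested there had a median of 0.15 (0.25 and 0.23 with the GC correction). On chromosome 18, 3 of 4 members lay lower, AC134978.1 being the exception, with a median of −0.38 against −0.18 for the 230 genes tested there. On chromosome 20 all 3 members, NORAD and AL035661.1 among them, lay higher without overlap (median 0.48), where the 398 genes tested had −0.05. Of all genes tested on any chromosome, 17.0% lay higher without overlap. That share was not computed for single chromosomes. Over 248 pairs of a member and an adjacent tested coding gene Pearson's r was 0.19, and 0.06 with the GC correction. Of 236 such neighbours, 5 passed the test by edgeR, a share near that of all genes tested (1.08% higher and 0.903% lower). They were PAX5 beside EBLN3P (log2 3.76, adjusted p = 0.00048), NRIP1, DHX40 beside AC091271.1, CNDP2 beside LINC00909 and DYNC1H1 beside AL118558.3, all but CNDP2 higher in RC4-2B. EBLN3P, AC091271.1 and AL118558.3 were chosen here after their values were seen, and had log2 values of 0.27, 0.54 and −0.30.

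Beside other gene classes with the same count minimum, 3.97% of the lincRNA members passed the edgeR test in either direction, against 1.69% of protein-coding genes, 1.46% of 137 antisense genes and 0 of 42 processed transcripts (5 higher and 5 lower at an unadjusted p under 0.05, and 2 and 1 called by DESeq2). Without RC4-2B replicate 2 these shares were 15.9%, 15.0%, 5.11% and 16.7%, with 7 of the 42 processed transcripts called. Of the members called by edgeR with all libraries, AC134978.1 and AC237221.1 passed the count minimum through RC4-2B alone. Among the 108 members with a mean of at least 100 counts in each line, 3 were called higher and 0 lower. Shares under that stricter minimum were not computed for the other classes. Of the 509 tested lincRNA rows under the minimum, 0 were called higher and 2 lower by edgeR with all libraries (26 and 32 at an unadjusted p under 0.05), and 5 and 8 by DESeq2. Over all genes tested, 12.0% lay higher and 9.42% lower at an unadjusted p under 0.05 in edgeR, and DESeq2 called 3.28% and 2.64%.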

How the data were processed

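STAR was used by the authors for mapping to GRCh38, and the authors deposited raw counts per Ensembl gene for the 6 libraries, and the FPKM values of the same genes. The counting program, its strand setting and the annotation release are not given in the sources used here. Library totals were 15707134–18052517 counts, and 3 counts corresponded to 0.170–0.188 CPM.

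The members and gene lists were chosen with earlier results of these data known. Counts were analysed with edgeR 4.0.16 in R 4.3.3: TMM scaling, filterByExpr with a minimum of 10 counts (15054 genes), cell line as the only term, glmQLFit and glmQLFTest, and Benjamini-Hochberg adjustment over all genes tested with a threshold of 0.05. CPM values are TMM-scaled. All 126 members passed the filter. Intervals are 95% intervals from the fit. The labels call the samples biological replicates and do not say how the cultures were separated. The fit was tested on simulated data. DESeq2 1.42.0 (the tool of the study's methods) and limma 3.58.1 on log2(FPKM + 1) and log2(FPKM + 0.1) served as alternatives, as did RLE and upper-quartile factors, other filters, other count minimums of 50 and 200, omission of each library, and a GC correction, in which each library's lowess trend (span 0.2) of log2 CPM, relative to the gene's mean, against GC content entered the fit as an offset. GC content, exons and overlaps came from GENCODE release 44, matched by identifier. Promoter and microRNA sequences came from RefSeq (GRCh38.p14) and windows at deposited starts from GRCh38. Named were members past the threshold, the 10 highest and 10 lowest without overlap between lines, the 10 highest by FPKM, members of 6 lists, those at the count limit, the 5 nearest to no change, and the 5 with the smallest p in each direction without RC4-2B replicate 2. 1 Y-linked member was counted but given no values. Values of 1 further member are not reported here.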

Additional observations from a re-analysis of the deposited data

How the results depend on the processing

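With all libraries 5 members were higher and 0 lower. Of lower calls there were 4 with DESeq2, 5 without a filter on low counts and 5 with the GC correction, which gave 9 higher calls. Of higher calls there were 3, 2 and 1 with limma on log2(FPKM + 1), on log2(FPKM + 0.1) and on the latter without a filter, 2 among members with a mean of at least 200 counts and 3 among those with at least 100 in each line. Leaving out 1 library at a time gave 0 to 11 higher and 0 to 9 lower calls, and 20 to 26 and 18 to 38 members without overlap above and below, where 2 libraries are separated more easily than 3. Shares of calls over all genes tested were computed only with all libraries, DESeq2, the GC correction and without RC4-2B replicate 2. For separation they were computed only with all libraries, so the other counts here cannot be set beside those of all genes. The median log2 fold change was between −0.052 and 0.026 under the alternatives run, within the spread of the libraries. The cause of the other changes was not tested. The labels do not say whether same-numbered libraries were paired. Correlations of same-numbered deviations were 0.33, 0.18 and −0.08, and those of differently numbered ones −0.31 to 0.19. With 3 libraries per line, these values cannot decide whether the libraries were paired. With the replicate block 1 member was called higher. The counts without overlap were not recomputed for the block, other filters or limma on log2(FPKM + 0.1).

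Alternatives were run for single genes only where they are named, and none of those whose direction turned had passed the test. With the GC correction the log2 fold changes were −0.17 for AC006504.5, 0.14 for AC106782.2, −0.12 for AL031123.2, −0.00069 for LINC00665, 0.085 for LINC01003, −0.11 for LINC02001, −0.084 for MIR4458HG, −0.19 for MIR99AHG, −0.0013 for SNHG4 and −0.12 for TP53TG1. With DESeq2 and RLE factors they were −0.0040 and −0.0047 for AP003392.4, −0.0062 and −0.0060 for GS1-124K5.4 and −0.0039 and −0.0039 for LINC02001, and with the replicate block −0.013 for GS1-124K5.4 and −0.010 for LINC02001. When 1 library was left out they ranged from −0.076 to 0.11 for AC006504.5, −0.13 to 0.16 for AL031123.2, −0.10 to 0.091 for AP003392.4, −0.19 to 0.10 for GS1-124K5.4, −0.22 to 0.061 for LINC00662, −0.037 to 0.18 for LINC00665, −0.15 to 0.20 for LINC02001, −0.062 to 0.23 for MIR4458HG, −0.063 to 0.11 for MIR99AHG and −0.081 to 0.17 for TP53TG1.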
